A study of Mus musculus with 8 samples.

Results

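The transcripts described here are 40 genes of the cell cycle, chosen by symbol from the 54854 genes of the deposited count table; all 40 were found there, and all 40 passed the filter on low counts that left 17723 genes for testing. Pituitaries were taken whole from 8 mice of the C57BL/6N strain at 5 weeks of age. Of the mice, 4 had received AFS98, a neutralizing antibody against CD115, the CSF1 receptor on which many tissue macrophages depend, and 4 had received the rat IgG2a isotype control 2A3. Each group held 1 female (gland 1) and 3 males (glands 2 to 4). Antibody or isotype was injected into the dam (3 mg, E6.5) and then into her pups, in doses of 100 µg on P2, 150 µg on P14 and 200 µg when they were 4 weeks old. How many dams contributed pups is not in the labels, so litter and treatment cannot be told apart, and p-values measure the spread between these 8 glands only. All 8 animals were injected, none was untreated, and the antibody was given to the whole animal and not to the pituitary alone.

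Cells that divide copy their DNA in S phase and separate the copies in mitosis, and each step needs its own set of proteins. Genes of the first set are switched on by E2F transcription factors at the passage from G1 into S phase. Those of the second set are held down in resting cells by the DREAM complex, which binds the cell cycle genes homology region (CHR) of their promoters, and are later driven by B-MYB and FOXM1. The pituitary of a young mouse still grows, and both hormone-producing cells and SOX2-positive stem cells divide there, so that a whole-gland library samples proliferating cells of several types. Of the genes listed, 23 act in mitosis or in the structure of mitotic chromosomes and 17 in the entry into S phase or in DNA replication. They are called mitotic and replication genes below.

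Promoter sequences are shown first because these sets are known to be read by different factors. Whether promoter motifs bear on the differences between glands described below was not tested. RefSeq promoter windows (GRCm38.p6, 250 bases before to 50 bases after the start site) were matched by symbol for 32 of the 40 genes, which have 35 windows. The 250 bases before the start are printed, 5′ to 3′ on the strand of the gene, for the 2 mitotic and the 2 replication genes with the highest FPKM among those matched. Capitals mark the CHR motif (TTTGAA), the CCAAT box (CCAAT) and E2F motifs (TTTCCCGC, TTTGGCGC, TTTGCCGC or TTTCGCGC), on either strand.
Top2a, chr11:99024190-99024439, minus strand: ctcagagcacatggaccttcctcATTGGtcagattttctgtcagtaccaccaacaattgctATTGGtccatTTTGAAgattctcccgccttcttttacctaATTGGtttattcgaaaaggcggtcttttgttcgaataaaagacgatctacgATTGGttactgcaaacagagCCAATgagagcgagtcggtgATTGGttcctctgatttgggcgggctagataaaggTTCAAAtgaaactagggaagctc
Cdc20, chr4:118437344-118437593, minus strand: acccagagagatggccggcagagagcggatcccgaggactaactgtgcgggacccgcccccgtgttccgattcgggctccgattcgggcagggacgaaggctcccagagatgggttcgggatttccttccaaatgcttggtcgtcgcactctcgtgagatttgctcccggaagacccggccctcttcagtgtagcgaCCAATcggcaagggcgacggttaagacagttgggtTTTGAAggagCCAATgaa
Pcna, chr2:132253181-132253430, minus strand: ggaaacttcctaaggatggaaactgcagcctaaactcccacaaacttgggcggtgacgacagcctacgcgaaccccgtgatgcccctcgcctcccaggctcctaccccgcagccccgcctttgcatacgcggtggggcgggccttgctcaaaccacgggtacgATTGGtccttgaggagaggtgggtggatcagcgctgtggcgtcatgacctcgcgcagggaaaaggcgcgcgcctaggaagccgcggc
Mcm6, chr1:128359706-128359955, minus strand: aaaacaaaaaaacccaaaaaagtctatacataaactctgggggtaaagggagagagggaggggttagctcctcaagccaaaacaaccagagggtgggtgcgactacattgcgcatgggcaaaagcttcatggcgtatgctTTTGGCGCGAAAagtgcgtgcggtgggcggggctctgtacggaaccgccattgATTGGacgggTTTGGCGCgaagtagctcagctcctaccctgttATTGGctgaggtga
Cdc20 holds a CHR motif 18 bases before its start with CCAAT boxes at 53 and 8 bases, and Top2a holds one at 23 bases on the opposite strand, a further one at 179 bases, and 6 CCAAT boxes. The Pcna stretch has a single CCAAT box and none of the other motifs. In Mcm6, E2F motifs begin 110, 106 and 47 bases before the start, the first pair overlapping on opposite strands.

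Over whole 300-base windows, the CHR motif occurred in 14 of 19 windows of mitotic genes (73.7%), in 1 of 16 windows of replication genes (6.25%), and in 17.9% of all 32851 promoter windows. E2F motifs were instead most frequent in the replication genes, with 7 of 16 windows (43.8%). They occurred in 1 of 19 windows of mitotic genes (5.26%) and in 2.26% of all windows. CCAAT boxes were present in 89.5% of mitotic, 68.8% of replication and 37.4% of all windows. Every mitotic window that held a CHR motif also held a CCAAT box (73.7%, against 6.95% of all windows). These are matches of letters, counted in both orientations, and say nothing of whether a factor was bound. The 19 mitotic windows belong to 18 genes and the 16 replication windows to 14. Prc1, Mcm7 and Uhrf1 thus count more than once, and the windows of Prc1 overlap.

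**Figure D1:**
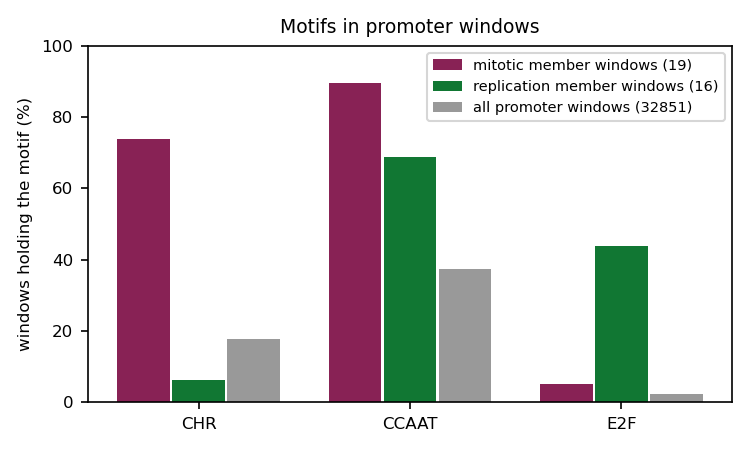
Percent of 300-base RefSeq promoter windows (y axis, from 0) that hold the CHR, CCAAT or E2F letters on either strand, for 19 windows of mitotic genes, 16 windows of replication genes and all 32851 windows. CHR letters are most frequent in the mitotic windows (73.7%) and E2F letters in the replication windows (43.8%).

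Libraries held 23289819 to 36218096 counts, and each of the 40 genes had between 31 and 2341 counts in a gland. Levels below are CPM (counts scaled to library size with TMM factors) and are always given for glands 1 to 4 of a group in that order, the female first. As the check of the treatment, all 12 macrophage markers had a log2 change below 0. Of them 11 were called lower (edgeR, adjusted p below 0.05), against 0.829% of all genes tested. The summed level of the 12 was 200 to 278 CPM in controls and 15.8 to 53.4 CPM with anti-CD115. The tissue label was borne out by Gh, Ghrhr and Pou1f1, which summed to 134221 CPM or more in every gland. A pair of libraries stood apart in the cell cycle genes: isotype control gland 4 was the highest of the 8 for 29 of the 40, and the anti-CD115 female was the lowest for 29. Among all genes tested they were so for 13.3% and 10.7%. Results are given below with and without them.

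Within the replication set, levels per length in control glands were highest for Pcna, the sliding clamp of DNA polymerases (19.8 ± 3.35 FPKM, SD, n = 4), and Mcm4, a subunit of the MCM helicase (10.6 ± 1.96 FPKM). Smc4, a condensin subunit, led the mitotic set (10.5 ± 2.04 FPKM), followed by Cdc20 (5.06 ± 2.26 FPKM), the activator of the anaphase-promoting complex, and Top2a (5.01 ± 2.50 FPKM), the topoisomerase that untangles sister chromatids. Mki67, which encodes the Ki-67 antigen used to count dividing cells, stood at 4.63 ± 2.36 FPKM. The gap between Pcna and Mcm4 exceeded their SD, as did that between Smc4 and Cdc20, while Cdc20, Top2a and Mki67 did not differ beyond theirs. At the low end were Cenpe (0.684 ± 0.357 FPKM), a kinetochore motor, and Cdc6 (0.641 ± 0.223 FPKM), which loads the helicase at origins. In all, 36 of the 40 had a control mean above 1 FPKM.

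The mitotic genes varied several-fold between glands of the same treatment. Mki67 (ENSMUSG00000031004, chromosome 7, 135689784 to 135716361, GRCm38) stood at 39.8, 37.3, 28.6 and 81.8 CPM in the isotype control glands and at 19.2, 49.4, 46.7 and 71.4 CPM in the anti-CD115 glands. Top2a (ENSMUSG00000020914, chromosome 11, 98992943 to 99024189) stood at 48.5, 30.96, 26.4 and 76.2 CPM in the isotype control glands and at 17.5, 52.9, 37.8 and 63.6 CPM in the anti-CD115 glands. Both were highest in isotype control gland 4 and lowest in the anti-CD115 female, and the values of the groups overlapped. Bub1b, a kinase of the spindle checkpoint, was measured at 10.8, 8.64, 8.12 and 14.4 CPM in the isotype control glands and at 4.24, 10.3, 8.02 and 11.5 CPM in the anti-CD115 glands. For Birc5, the survivin subunit of the chromosomal passenger complex, the levels were 5.88, 3.36, 4.80 and 9.86 CPM in the isotype control glands and 1.61, 5.46, 3.99 and 6.48 CPM in the anti-CD115 glands. The anti-CD115 female was again the lowest of the 8, at less than any control. Ccna2, the cyclin of S phase and early mitosis, ranged in the same way (18.02, 11.3, 12.1 and 29.3 CPM in the isotype control glands and 6.98, 18, 13.7 and 21.3 CPM in the anti-CD115 glands). Ccnb2, a B-type cyclin that activates CDK1, was at 5.46, 4.79, 5.57 and 12.02 CPM in the isotype control glands and at 1.89, 7.25, 5.43 and 6.94 CPM in the anti-CD115 glands. Its listed pseudogene Ccnb2-ps held 114% of the count of Ccnb2 but was nearly even, at 6.02 to 7.79 CPM over the 8 glands. How reads shared by such copies were counted is not given in the sources used here.

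The spindle and anaphase genes had the same highest and lowest glands. Tpx2, a spindle assembly factor, was at 17.6, 12.7, 12.1 and 29.9 CPM in the isotype control glands and at 7.44, 20.5, 17.6 and 22.9 CPM in the anti-CD115 glands. The kinesin Kif11, which pushes spindle poles apart, was at 14.5, 8.82, 9.24 and 20.8 CPM in the isotype control glands and at 5.40, 12.8, 9.63 and 16.99 CPM in the anti-CD115 glands. Cdc20 stood at 6.89, 6.51, 9.04 and 15.7 CPM in the isotype control glands and at 4.28, 11.5, 9.16 and 9.13 CPM in the anti-CD115 glands. Ube2c, the ubiquitin-conjugating enzyme that works with the anaphase-promoting complex, was at 6.30, 4.55, 6.43 and 14.6 CPM in the isotype control glands and at 2.81, 9.04, 6.25 and 10.3 CPM in the anti-CD115 glands. Where a gene on the opposite strand overlaps, reads can only be told apart if strand was used in counting, which is not given in the sources used here. This concerns Cdc20 (Elovl1), Ccna2 (Exosc9), Kif20a (Cdc23), Ccne2 (Ints8), Mcm7 (Cops6) and Gins2 (Gse1), whose overlapping genes hold more counts than they do. Among the 23 mitotic genes, isotype control gland 4 was the highest for 23 and the anti-CD115 female the lowest for 23. Over all 8 glands the highest exceeded the lowest by 1.57-fold, for Smc4, to 6.85-fold, for the checkpoint kinase Bub1. Smc4 itself was at 56.5, 49.4, 45.3 and 69.3 CPM in the isotype control glands and at 44.1, 55.9, 56.6 and 66.2 CPM in the anti-CD115 glands.

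Replication genes were more even and in part ordered the glands differently. Pcna (ENSMUSG00000027342, chromosome 2, 132249162 to 132253314) stood at 57.3, 37.9, 46.4 and 50.05 CPM in the isotype control glands and at 38.7, 51.9, 39.3 and 47.6 CPM in the anti-CD115 glands. Mcm4 was at 43.9, 32.5, 31.8 and 44.5 CPM in the isotype control glands and at 37.1, 41.3, 38.1 and 37.02 CPM in the anti-CD115 glands. The control female was the highest gland for Pcna and second to control gland 4 for Mcm4, and the anti-CD115 female lay within the range of the control males for Mcm4 and Pcna. Rrm1, the large subunit of ribonucleotide reductase, was at 60.8, 42.9, 46.7 and 57.5 CPM in the isotype control glands and at 42.5, 59.4, 48.4 and 64.9 CPM in the anti-CD115 glands. Its small subunit Rrm2, which unlike Rrm1 is known to be degraded outside S phase, was at 12.6, 6.65, 9.24 and 17.5 CPM in the isotype control glands and at 4.88, 15.97, 11.8 and 15.3 CPM in the anti-CD115 glands. Rrm2 thus spanned 3.58-fold over the 8 glands and Rrm1 1.53-fold. The highest and the lowest gland for Rrm2 were those of the mitotic genes. For E2f1, an activating E2F factor, the levels were 15.1, 10.1, 12.1 and 18.9 CPM in the isotype control glands and 9.79, 11.5, 13.4 and 12.5 CPM in the anti-CD115 glands. Cyclin E2, Ccne2, which drives entry into S phase, was at 13.2, 8.22, 9.24 and 13.3 CPM in the isotype control glands and at 7.40, 14.7, 10.2 and 13 CPM in the anti-CD115 glands. The anti-CD115 female was the lowest gland for Rrm1, E2f1 and Ccne2. Uhrf1, which guides maintenance of DNA methylation behind the fork, stood at 12.9, 7.10, 6.46 and 12.7 CPM in the isotype control glands and at 6.94, 12.5, 9.92 and 10.01 CPM in the anti-CD115 glands. The chromatin remodeller Hells was at 11.1, 5.00, 4.18 and 10.03 CPM in the isotype control glands and at 7.96, 9.64, 7.22 and 8.71 CPM in the anti-CD115 glands, with control glands 2 and 3 below all others. The control female was the highest gland for 7 of the 17 replication genes and for none of the mitotic ones. It was so for 11.9% of all genes tested. Isotype control gland 4 was the highest for 6 of the 17, against 13.3% of all genes tested. The anti-CD115 female was the lowest for 6 of the 17, against 10.7% of all genes tested.

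**Figure D2:**
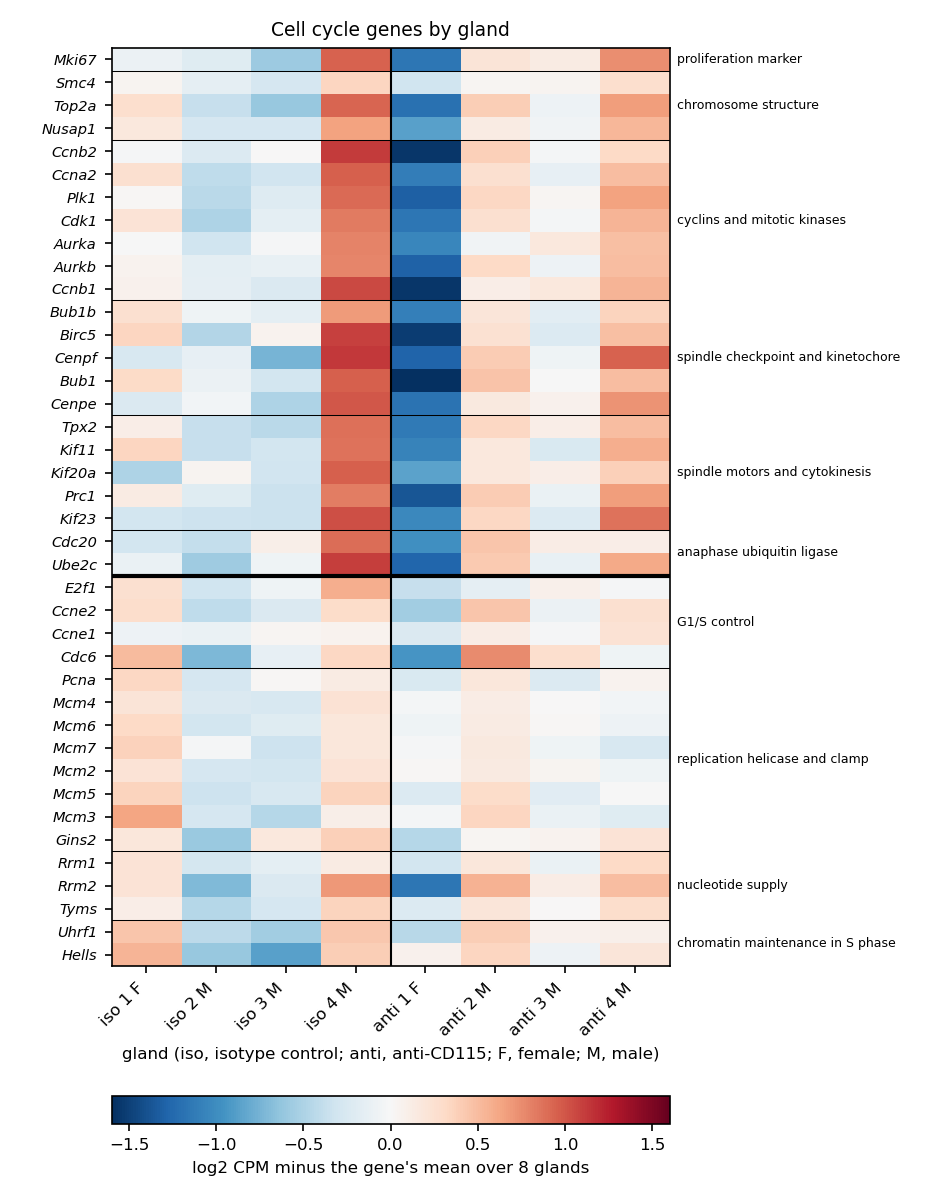
Log2 CPM of each of the 40 genes minus its mean over the 8 glands (colour, red above and blue below), with 1 row per gene grouped by role and 1 column per gland; a heavy line parts the 23 mitotic from the 17 replication genes. Isotype control gland 4 is highest and the anti-CD115 female lowest for all 23 mitotic genes shown.

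Spread within a treatment group was thus wide for the mitotic genes. In control glands the median ratio of the highest to the lowest gland was 2.51 over the 23 mitotic genes and 1.63 over the 17 replication genes, against 1.31 over 15472 genes with a mean above 1 CPM and a count in every gland. With anti-CD115 the medians were 3.64, 1.41 and 1.25. As means of log2 CPM over the 23 mitotic genes, the glands read 3.29, 2.99, 3.00 and 4.15 in controls and 2.10, 3.52, 3.23 and 3.79 with anti-CD115. Over the 17 replication genes they read 4.23, 3.56, 3.69 and 4.22 in controls and 3.63, 4.18, 3.92 and 4.01 with anti-CD115. From the highest to the lowest gland this is a 4.15-fold span for the mitotic and a 1.58-fold span for the replication genes. In whole-gland RNA, fewer dividing cells and less of these transcripts per cell cannot be told apart.

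**Figure D3:**
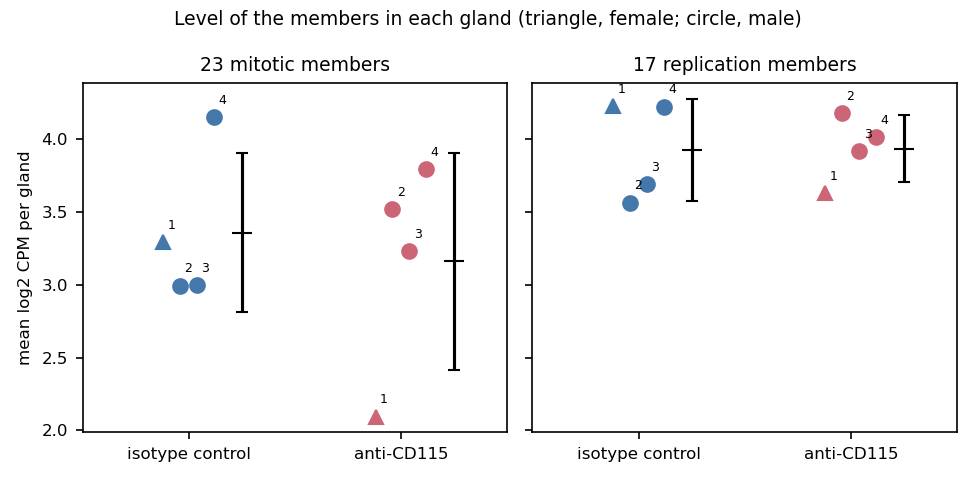
Mean log2 CPM (y axis) of the 23 mitotic genes (left) and 17 replication genes (right) in each gland, numbered by replicate; triangles are females and circles males, and the bar gives mean ± SD (n = 4). The mitotic mean reaches from 2.10 in the anti-CD115 female to 4.15 in isotype control gland 4, and the replication mean from 3.56 to 4.23.

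Other cell types also differed in these glands. Summed pituicyte markers (Rax, Col25a1 and Gfap, glia of the posterior lobe) were at 31.9 CPM in isotype control gland 4 and at 58.8 to 109 CPM in the other controls and 68.8 to 102 CPM with anti-CD115. The 5 endothelial markers summed to 165 CPM in that gland, to 232 to 241 CPM in the other controls and to 247 to 282 CPM with anti-CD115. In the anti-CD115 female the 7 erythroid markers summed to 138 CPM, against 204 to 402 CPM in controls and 248 to 444 CPM in the treated males. The 4 gonadotroph markers summed to 644 CPM in the same gland, to 1133 CPM in the control female and to 1851 to 2430 CPM in the males. Such sums follow their most abundant genes. Only 2 of these 4 markers were lower in females, with log2 female minus male differences from -1.96 to 0.19. The 2 lactotroph markers, Prl and Drd2, summed to 84080 CPM in the control female, 49610 CPM in the anti-CD115 female and 17391 to 26644 CPM in the males. Only 1 of the 2 was higher in females: the log2 female minus male differences were 1.57 and -0.022. No marker of these lists was at 0 in every gland, and the 7 stem and folliculostellate markers, Sox2 and Sox9 among them, summed to 335 to 387 CPM in controls and 366 to 390 CPM with anti-CD115. The 12 macrophage markers summed to 228 CPM in isotype control gland 4, inside the range of the controls, and to 48.5 CPM in the anti-CD115 female, inside the range of the treated males. Their part in the differences between glands was not tested.

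The treatment comparison asked whether macrophage depletion shifted the proliferative programme of the gland. None of the 40 genes passed in either direction (edgeR quasi-likelihood test with terms for sex and treatment, adjusted p below 0.05), where 0.869% of all genes tested were called, 0.829% lower and 0.0395% higher. The smallest adjusted p of the 40 was 0.65. At an unadjusted p below 0.05 there were 0 of the 40, against 10.3% of all genes tested. DESeq2 called 0 of the 40 after adjustment, against 1.51% of all genes in that fit. In 0 of them did the 4 treated glands lie wholly above or below the 4 controls, which held for 5.78% of all genes tested.

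Among mitotic genes the change farthest from 0 was that of Birc5 (5.97 ± 2.79 CPM under isotype and 4.39 ± 2.11 CPM under anti-CD115, SD, n = 4 each; log2 change -0.55, SE 0.37, edgeR adjusted p = 0.655). Ccnb2 came next (log2 change -0.48, SE 0.32, edgeR adjusted p = 0.650). Without single libraries Birc5 ran from -0.83 to -0.18 and Ccnb2 from -0.71 to -0.16, both nearest to 0 without a control gland (the female for Birc5 and gland 4 for Ccnb2). Mki67 was nearly level between the groups (46.9 ± 23.8 CPM under isotype and 46.7 ± 21.4 CPM under anti-CD115, SD, n = 4 each; log2 change -0.11, SE 0.33, edgeR adjusted p = 0.941). Values for Top2a (-0.18), Ccna2 (-0.31), Bub1b (-0.36), Tpx2 (-0.17), Kif11 (-0.32), Cdc20 (-0.21) and Ube2c (-0.26) were below 0 on the log2 scale. Smc4 was at 0.0056 (SE 0.14). The median log2 change was -0.21 over the mitotic genes and 0.012 over the replication genes, and that of all genes tested was 0.0041. In all, 29 of the 40 were below 0, as were 49.1% of all genes tested; in males only there were 9.

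For replication genes the largest change upward was that of Hells (7.58 ± 3.49 CPM under isotype and 8.38 ± 1.04 CPM under anti-CD115, SD, n = 4 each; log2 change 0.19, SE 0.27, edgeR adjusted p = 0.850). The changes of the clamp Pcna (-0.11), of Mcm4 (0.013), of both reductase subunits Rrm1 (0.048) and Rrm2 (-0.030), and of Ccne2 (0.025) and Uhrf1 (0.012) were each smaller than their SE. E2f1 gave -0.26 (SE 0.19). The direction of the median turned on single libraries: for the mitotic genes it was 0.059 without isotype control gland 4, 0.039 without the control female and 0.038 without the anti-CD115 female.

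A missing call does not show that the levels were alike, so the intervals are given. For 32 of the 40 the 95% interval of the change lay within 2-fold either way, as for 86.3% of all genes tested. The other 8, all mitotic, were Top2a, Ccnb1, Ccnb2, Birc5, Bub1, Ccna2, Kif11 and Ube2c, and their intervals reached below a 2-fold fall. The lowest bound was that of Birc5, whose interval ran from -1.38 to 0.28 on the log2 scale. Intervals were narrowest for Mcm4 (-0.25 to 0.28) and Mcm2 (-0.22 to 0.33), and that of Pcna was -0.41 to 0.20. For Mki67 the interval was -0.83 to 0.61.

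**Figure D4:**
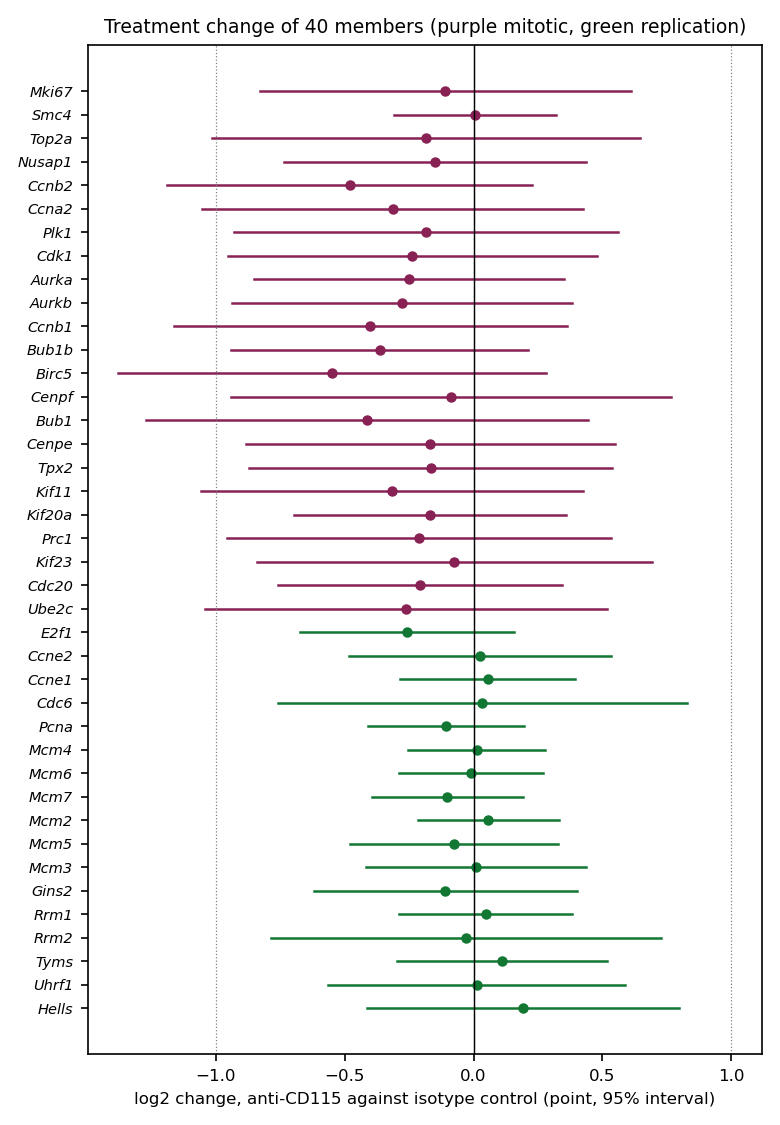
Log2 change with anti-CD115 against isotype control (x axis; point, with its 95% interval from edgeR) for each of the 40 genes; dotted lines mark a 2-fold change. Every interval holds 0, and the median SE is 0.33 for the mitotic genes (purple) and 0.18 for the replication genes (green).

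The female pair and the males are given separately here; the difference between them did not pass its test. From the control to the anti-CD115 female the level was lower for 40 of the 40 genes, as for 50.1% of all genes tested. From the control to the treated males the mean log2 level was higher for 34 of the 40, as for 52% of all genes tested. Both held for 34, against 21.9% of all genes tested. The mean over the mitotic genes was lower by a log2 difference of -1.20 in the female pair and higher by 0.14 in the males. For the replication genes these differences were -0.60 and 0.21. Each female value rests on a single animal per group.

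Where sex and treatment were allowed to interact, the female change minus the male change was below 0 for all 40, with a median of -1.15 on the log2 scale (-1.34 for mitotic and -0.66 for replication genes). None passed after adjustment, where 0.0395% of all genes tested did. DESeq2 called 0 of the 40 and 0.237% of all genes. With 1 female per group, the error of this term comes from the spread among males alone, moderated across genes, and the spread among females was not measured. Since the 40 genes vary together across glands, their counts are not repeated evidence for a difference carried by 1 animal per group. At an unadjusted p below 0.05 there were 13 of the 40, against 3.2% of all genes tested in either direction and 1.22% in this one, and they comprised 6 mitotic and 7 replication genes. The largest value belonged to Bub1 (-2.16, SE 0.70; -2.13 in the female pair and 0.13 in the males), followed by Cdc6 (-1.92, SE 0.62; -1.44 and 0.49). Rrm2 gave -1.73, SE 0.63, and Top2a -1.68, SE 0.72. For Mki67 the value was -1.24, SE 0.68. Kif20a, a kinesin of cytokinesis, gave -0.26, SE 0.59, the value nearest to 0 among the mitotic genes. The median without isotype control gland 4, the male that stood apart, was -1.53, and without any other single male it lay between -1.27 and -0.93. None of the 40 passed in any of these fits. Without isotype control gland 4 an unadjusted p below 0.05 was reached by 36 of the 40, against 4.32% of all genes in that fit. The smallest adjusted p there was 0.0954 (edgeR). That gland was singled out because it was the highest for 29 of these same 40 genes. Leaving it out narrows the spread among males, and so the error, for these genes in particular. The 36 is therefore no added evidence, and the share of all genes is not a fair background for it. With all 8 glands and no filter on low counts, 11 of the 40 passed in edgeR, against 0.525% of the 32025 genes in that fit. Males alone gave 0 treatment calls among the 40, against 0.636% of all genes in that fit. The median change in males was 0.040 for mitotic and 0.14 for replication genes. In 0 of the 40 did the 3 treated males lie wholly above or below the 3 control males (14.4% of all genes tested).

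**Figure D5:**
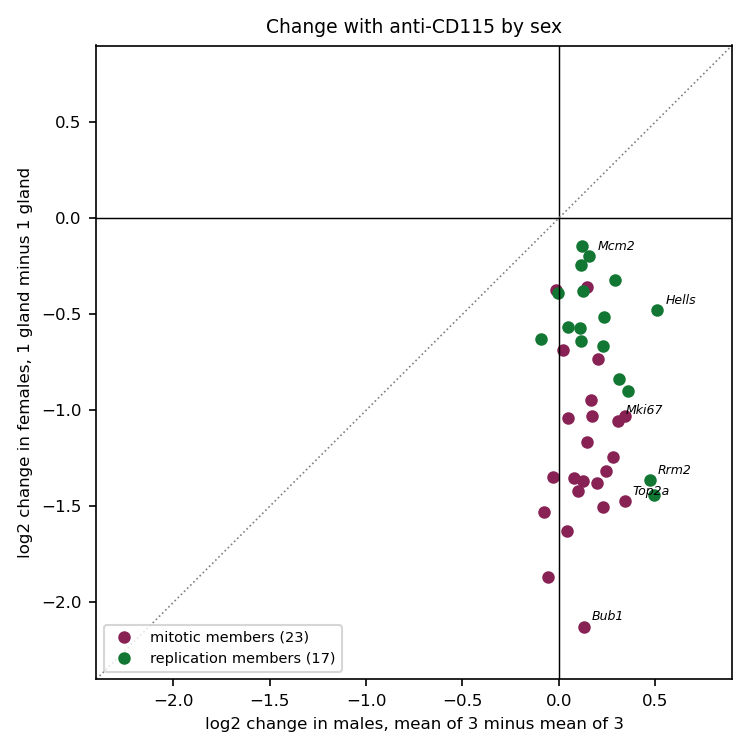
Log2 change in the male means (x axis, 3 glands against 3) and in the female pair (y axis, 1 gland against 1) for each of the 40 genes. All 40 points lie below 0 on the y axis and below the dotted line of equal change, and 34 lie to the right of 0 on the x axis.

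Females and males were also compared as such, over both treatments. None of the 40 differed after adjustment (edgeR), where 0.491% of all genes tested did. At an unadjusted p below 0.05 there were 6, all mitotic and all lower in females, against 9.09% of all genes tested in either direction and 4.16% lower in females. They were Kif20a (log2 female minus male -0.95, SE 0.30), Cdc20 (-0.89, SE 0.31), Ccnb2 (-1.02, SE 0.40), the kinetochore proteins Cenpe (-0.98, SE 0.40) and Cenpf (-1.09, SE 0.48), and Kif23 (-0.96, SE 0.43), a motor of the midbody. DESeq2 called 1, Kif20a, and 1.97% of all its genes. Once genes with low counts were kept, 8 passed in edgeR, against 1.88% of the 32025 genes in that fit. The median female minus male difference was -0.77 for the 23 mitotic genes, all of which were below 0, and 0.022 for the replication genes; 31 of the 40 were below 0, as were 50.2% of all genes tested. Erythroid markers were also lower in females: this held for all 6 tested, with a median of -1.03, and 5 had an unadjusted p below 0.05 (edgeR). Their summed level was lowest in the anti-CD115 female but highest in anti-CD115 gland 4 (444 CPM). In isotype control gland 4, the highest for mitotic genes, it was 283 CPM. The part of erythroid markers in the sex difference was not tested. The mitotic median rested on the anti-CD115 female: without it the value was -0.17, and without the control female it was -1.52.

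Other genes of the cell cycle were read in the same way. Of 133 further genes in 7 lists, 1 fell with anti-CD115 and none rose, where 0.829% of all genes tested fell, so the count is near the background. The change was below 0 for 81 of the 133, as for 49.1% of all genes tested, with a median of -0.063. The kinetochore and checkpoint list (18 genes) had a median log2 change of -0.21, the spindle and cytokinesis list (20 genes) of -0.21, the licensing and fork list (31 genes) of 0.030 and the Rb, E2F and DREAM list (20 genes) of -0.017. Foxm1, the transcription factor of mitotic genes, stood at 11.8, 8.26, 9.30 and 20.7 CPM in the isotype control glands and at 5.79, 14.6, 11.04 and 15.5 CPM in the anti-CD115 glands, in the same order of glands as Mki67 at its extremes. The single call was the inhibitor of cyclin-dependent kinases Cdkn1a, which encodes p21 (31.3 ± 12.7 CPM under isotype and 15.8 ± 3.82 CPM under anti-CD115, SD, n = 4 each; log2 change -0.95, SE 0.18, edgeR adjusted p = 0.0404). It was at 17.3, 24.6, 44.98 and 38.5 CPM in the isotype control glands and at 11.2, 14.4, 17.7 and 19.9 CPM in the anti-CD115 glands, and the groups overlapped only through the control female. The call ended without the control female or anti-CD115 female (adjusted p = 0.0665 and 0.0650), without control gland 3 or 4 (0.0811 and 0.116) and without anti-CD115 gland 2, 3 or 4 (0.156, 0.137 and 0.0948). It ended as well with the stricter filter (0.0587), without a sex term (0.245) and in males only (0.0651). It held with RLE factors (0.0415), in DESeq2 (4.41e-05), with no filter on low counts (6.62e-07), with a replicate block (0.0183) and without control gland 2 (0.0158). The log2 change lay between -1.09 and -0.80 without single libraries. Of the other 7 CDK inhibitors none passed, among them Cdkn1b, which encodes p27 and restrains the cycle in pituitary cells (log2 change 0.19, SE 0.073, adjusted p = 0.389).

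Outside these lists, the genes whose log2 CPM over the 8 glands was most like the mean of the 40 were Cdca2 (Pearson r 0.98, Spearman rho 1), Trim59 (0.98 and 0.95), Cdca5 (0.98 and 0.98), Mxd3 (0.97 and 0.93) and Shcbp1 (0.97 and 0.98). They were selected for that likeness, so the coefficients describe 8 glands and carry no test. Cdca5 encodes sororin, which protects the cohesion of sister chromatids. Cdca2, the most alike, stood at 4.45, 2.97, 3.14 and 8.04 CPM in the isotype control glands and at 1.96, 4.71, 4.26 and 6.98 CPM in the anti-CD115 glands.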

How the data were processed

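Per the labels, 100 ng of RNA from each gland entered a strand-marking mRNA library kit. The submitters' processing notes name GRCm38, featureCounts 1.5.0-p3, HISAT2 2.0.5 and StringTie 1.3.3b. The authors deposited whole-number counts per gene for 54854 genes, not normalised, and FPKM values for the same genes, scaled by listed gene length and library size. Whether counting used the strand is not given in the sources used here. Of the 40 genes, 8 overlap a gene on the opposite strand that holds over 5% of their count.

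Counts were fitted in R 4.3.3 with edgeR 4.0.16 (filterByExpr on treatment, TMM, glmQLFit and glmQLFTest with sex and treatment, all 8 libraries). P-values were adjusted over all 17723 genes by Benjamini and Hochberg, threshold 0.05. Standard errors and 95% intervals come from the F statistic. Per-gland means use log2 CPM with a prior count of 2. Interaction came from a fit with the product of sex and treatment. DESeq2 1.42.0, RLE factors, other filters, other terms and leaving out each library were alternatives. The treatment test was tried on simulated counts, drawn for each gene independently and with no sex difference. The sex and interaction terms were not tried in this way. Replicates differed beyond sampling noise (chi-square per degree of freedom 16.0 or more). Counting error is not the only error of PCR-amplified libraries.

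The genes, role groups and lists were chosen with earlier results of these data known. Genes with values in every gland are the 2 of highest FPKM per role and those with the largest change each way, since none was called; further lists name called genes, others are named for an unadjusted p or an extreme value after their values were seen, and likeness was ranked by Pearson correlation with a mean above 1 CPM.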

Additional observations from a re-analysis of the deposited data

Results flagged for a closer look

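In 2 of 80 combinations of gene and treatment group, 1 gland lay far from the other 3 by Dixon's criterion on log2 CPM, where chance alone flags about 1 in 20. Both were isotype control gland 4. Ccnb2 stood there at 12.02 CPM with the next control at 5.57 CPM, and Kif23 at 11.7 CPM with the next at 4.66 CPM.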

How the results depend on the processing

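None of the 40 genes was called for treatment under any of the 15 alternatives run, the fits without each library in turn included, and the number of all genes called was 154, rising to 268 (DESeq2) and to 487 (no filter on low counts), and lying between 89 and 120 without single libraries (101 without anti-CD115 gland 2 and 89 without gland 4). The median change of the 40 was -0.13 and ran from -0.33 to 0.11 without single libraries. For sex, 1 of the 40 passed in DESeq2 (1.97% of all genes) and 8 in edgeR with no filter (1.88%); without single libraries there were 0 and the median difference ran from -1.24 to 0.052. For the interaction, 11 were called with no filter (0.525% of all genes) and 0 without any single male (an alternative chosen after seeing the data), with medians of -1.53 to -0.93. On log2(CPM + 1), log2(FPKM + 1) and log2(FPKM + 0.1), the same glands were highest and lowest. Whether the replicate numbers pair the glands was not settled. Deviations from group means correlated at 0.42, -0.096, 0.065 and 0.31 across 15478 genes for numbers 1 to 4. Of 8 glands, 4 correlated best with their own number. Number 1 is the female of each group, so sex and number cannot be told apart there. With a replicate block, 0 of the 40 and 118 of all genes were called. Small changes turned sign in several settings. In males only they were 0.18 for Mki67, 0.21 for Top2a, 0.0090 for Ccna2, 0.16 for Tpx2, 0.021 for Kif11, 0.048 for Pcna, 0.37 for Rrm2 and 0.0011 for Ube2c. Rrm2 was at 0.060 without a sex term and 0.033 with a replicate block. Without single libraries the log2 changes spanned -0.36 to 0.25 for Mki67, -0.10 to 0.13 for Smc4, -0.46 to 0.21 for Top2a, -0.55 to 0.034 for Ccna2, -0.39 to 0.16 for Tpx2, -0.54 to 0.021 for Kif11 and -0.21 to 0.048 for Pcna. They spanned -0.064 to 0.12 for Mcm4, -0.050 to 0.23 for Rrm1, -0.30 to 0.37 for Rrm2, -0.41 to 0.065 for Cdc20, -0.53 to 0.14 for Ube2c, -0.12 to 0.30 for Ccne2, -0.17 to 0.31 for Uhrf1 and -0.017 to 0.48 for Hells. With no change of sign they spanned -0.83 to -0.18 for Birc5, -0.71 to -0.16 for Ccnb2, -0.53 to -0.064 for Bub1b and -0.41 to -0.069 for E2f1. The cause of these shifts was not tested.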

Other observations

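Myc, which encodes a transcription factor of growth and cell cycle entry, stood apart in 1 gland and was singled out after its values were seen. It was at 28.6, 8.01, 7.02 and 6.36 CPM in the isotype control glands and at 9.22, 7.39, 6.90 and 7.82 CPM in the anti-CD115 glands. The control female was the highest, and no other gland was above 9.22 CPM. The female minus male difference was 1.29 on the log2 scale (edgeR adjusted p = 0.0981), and the interaction was -1.68 (adjusted p = 0.186), neither of which passed. Cdkn3, which encodes a phosphatase that acts on CDK2, also singled out afterwards, had the lowest female minus male difference of the CDK inhibitor list (-1.70, adjusted p = 0.137), at 0.378, 1.22, 1.75 and 2.48 CPM in the isotype control glands and at 0.596, 1.14, 1.35 and 1.85 CPM in the anti-CD115 glands.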
